A study of Equus caballus with 4 samples.

Results

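The genes described here act in mitosis and on the spindle: regulators of mitotic entry, cyclins, checkpoint and kinetochore proteins, motors and condensin subunits. They are the genes of the non-control probes whose gene name on the array was 1 of 48 names, a list chosen with earlier results of these data known. The names found 42 of the 48 genes, with 62 probes, out of 15614 genes that could be tested and 24998 gene names on the array. Both channels lay above the local background on all 4 arrays for each of the 42, so no member was tested through 1 channel only. TOP2A, CDC20, PLK1, PLK4, KIF4A and KIF23 have no probe under these names, and 5 of them come back below through the probe descriptions.

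A cell enters mitosis when cyclin B with CDK1 becomes active, and it leaves mitosis when the anaphase promoting complex marks cyclin B and securin for destruction. In between, condensin compacts the chromosomes, kinetochores bind spindle microtubules, and the spindle checkpoint holds anaphase back until every pair of chromatids is attached. Many of these genes are transcribed late in the cell cycle, partly under FOXM1, and satellite cells lower them when they leave the cycle to fuse into myotubes.

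The study asked what β-hydroxy-β-methylbutyrate (HMB) does to gene expression in differentiating equine satellite cells. The HMB group is satellite cells from the semitendinosus muscle of 6-month-old colts, given HMB after 2 days of differentiation and collected 24 h later, on day 3; the control group is the same kind of cells at the same day without HMB. The labels give the dose as 50 µg and the methods as 50 µM, and a description field names another treatment (GO) where the titles say HMB. Each of 4 arrays on a single slide carried HMB-treated RNA in Cy5 and control RNA in Cy3, from RNA with an integrity number of at least 9.2. The dyes were never swapped, so dye and treatment cannot be told apart. The colts behind each array are not named, and the p-values measure the spread between these 4 arrays. In bulk RNA, fewer cells of a type and less RNA per cell cannot be told apart.

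The label of muscle cells was checked against their markers. All 8 measured markers (MYF5, MYOD1, MYOG, DES, MYH3, MYH8, CKM and ACTA1) lay above background on all 4 arrays, whereas PAX7, CDH15, MYMK and TNNT1 have no probe. Of the leukocyte markers, CD14 and CD68 also exceeded background in either channel of every array, and CD3E and ITGAM never did. Of the fibroblast markers 8 were above background in both channels on each array, with COL3A1 the brightest probe. None of 5 endothelial markers could be tested.

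The probes are 60 bases long, and the ones below are those on which the results turn, with coordinates of the EquCab1 build. CCNB1 and CDK1 are the pair that drives mitotic entry, and AURKB is the kinase of the chromosomal passenger complex. CDCA8 holds the highest single value of any member, and KIF18A the lowest. The CCNB1 probe lies at chr21:761282-761512 on the minus strand, CDK1 at chr1:49550596-49553167 on the plus strand, AURKB at chr11:49880967-49881026, CDCA8 at chr2:18321586-18321645 and KIF18A at chr7:82161020-82161079, the last 3 on the minus strand.
CCNB1: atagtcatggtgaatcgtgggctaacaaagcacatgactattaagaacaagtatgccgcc
CDK1: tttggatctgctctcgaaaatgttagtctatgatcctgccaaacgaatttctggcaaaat
AURKB: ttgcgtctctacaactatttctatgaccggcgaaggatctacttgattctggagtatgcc
CDCA8: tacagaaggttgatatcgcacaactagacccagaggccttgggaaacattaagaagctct
KIF18A: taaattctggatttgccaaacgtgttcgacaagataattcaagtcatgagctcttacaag

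Some probes of 1 gene overlap, and overlapping probes are not separate measurements. A pair of the 5 UBE2C probes, which share most of their bases, and the pair of MAD2L1 probes, which share fewer, are shown for this, with the shared bases in capitals. The UBE2C probes lie at chr22:34838651-34839192 and chr22:34838647-34839188 and share 56 bases. The MAD2L1 probes lie at chr2:93240957-93241016 and chr2:93240917-93240976 and share 20, all on the plus strand.
UBE2C, a probe: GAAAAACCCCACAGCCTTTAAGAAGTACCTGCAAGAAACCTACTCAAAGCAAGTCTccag
UBE2C, another probe: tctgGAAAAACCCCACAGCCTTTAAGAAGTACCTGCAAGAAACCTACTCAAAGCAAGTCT
MAD2L1, a probe: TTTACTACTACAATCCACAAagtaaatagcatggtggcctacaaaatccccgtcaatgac
MAD2L1, another probe: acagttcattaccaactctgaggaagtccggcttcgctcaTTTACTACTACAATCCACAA

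Of the 42 genes, 28 (66.7%) were higher in HMB-treated cells at a limma adjusted p of at most 0.05, against 10.9% of all tested genes. None was lower, against 11.6% of all tested genes. At an unadjusted limma p under 0.05, 35 were higher and 0 lower, against 20% and 18% of all tested genes. A test that takes the variance of each probe alone called 0 members in either direction after the same adjustment, against 1.17% of tested genes higher and 1.46% lower. Unadjusted it called 24 higher and 0 lower, against 15.4% and 14.6%. The median log2 ratio of HMB over control was 0.45 across the 42, a 1.37-fold difference, and 0.02 across all tested genes. The means were positive for 40 members and negative for CDC25B and KIF18A. Among the 28 the means ran from 0.31 to 0.76 and the adjusted p from 0.00575 to 0.04999. The ratio was above 0 on all 4 arrays for 31 of the 42 (73.8%), against 24.5% of all tested genes, and among the 28 this held for 27, BIRC5 being above 0 on 3. Without array 1, 8 members were higher (7 of the 28, and CDCA8), against 7.51% of tested genes. Without array 2 this held for 7, all of the 28 (3.31%), and without array 4 for 12, all of the 28 (7.92%). Without array 3, 31 were higher (27 of the 28, with CDK1, CENPE, CENPF and MAD2L1 gained and PTTG1 lost), against 4.25%.

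**Figure D1:**
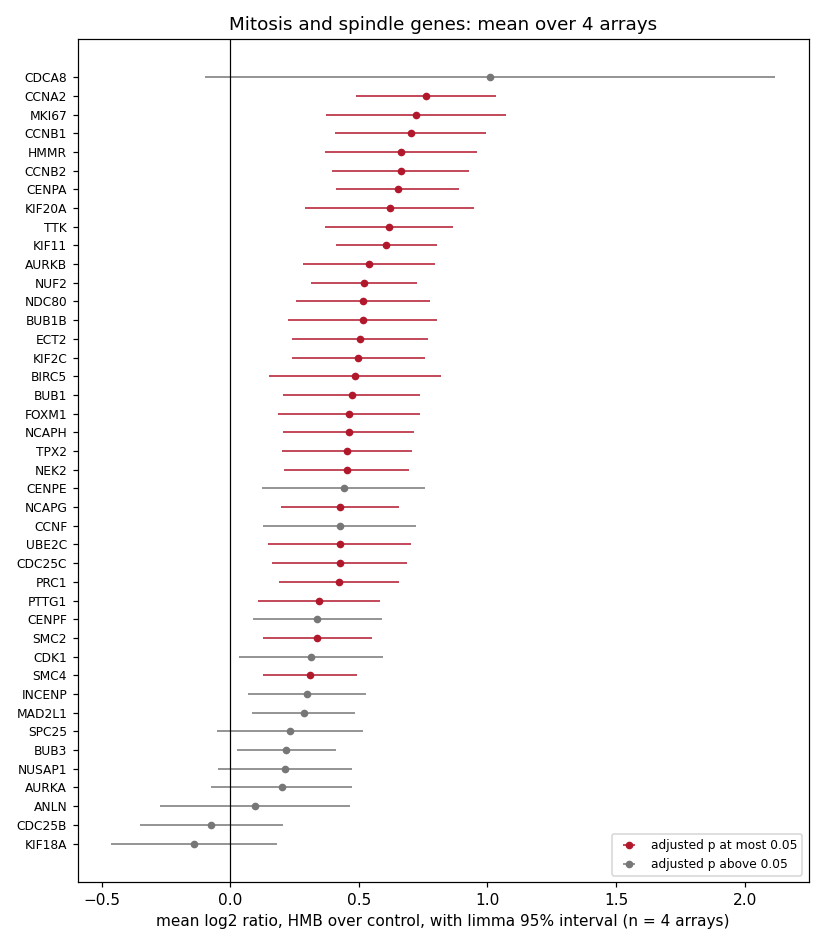
Mean log2 ratio of HMB over control for each of the 42 genes over 4 arrays, with limma's 95% interval as the line. Red points have an adjusted p of at most 0.05 (28 genes) and grey points do not (14 genes). All red points lie right of 0, CDCA8 has the widest interval (-0.10 to 2.12), and CDC25B and KIF18A lie left of 0.

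The ratios of these genes varied from array to array. The members' median log2 ratio was 0.63 on array 1, 0.46 on array 2, 0.11 on array 3 and 0.62 on array 4, where the authors' normalisation sets that of all tested genes near 0 (0.01, 0.01, 0.03 and 0.01). Array 3 held the lowest of the 4 ratios in 40 of the 42 members (95.2%), against 18.1% of all genes with 4 values. In the other members, ANLN and KIF18A, the lowest was on array 4. The highest ratio was on array 1 in 20 members, on array 2 in 3, on array 4 in 19 and on array 3 in 0. Ratios below 0 numbered 0 on array 1, 1 on array 2, 11 on array 3 and 3 on array 4. The median SD over arrays was 0.27 for a member and 0.16 for a tested gene.

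**Figure D2:**
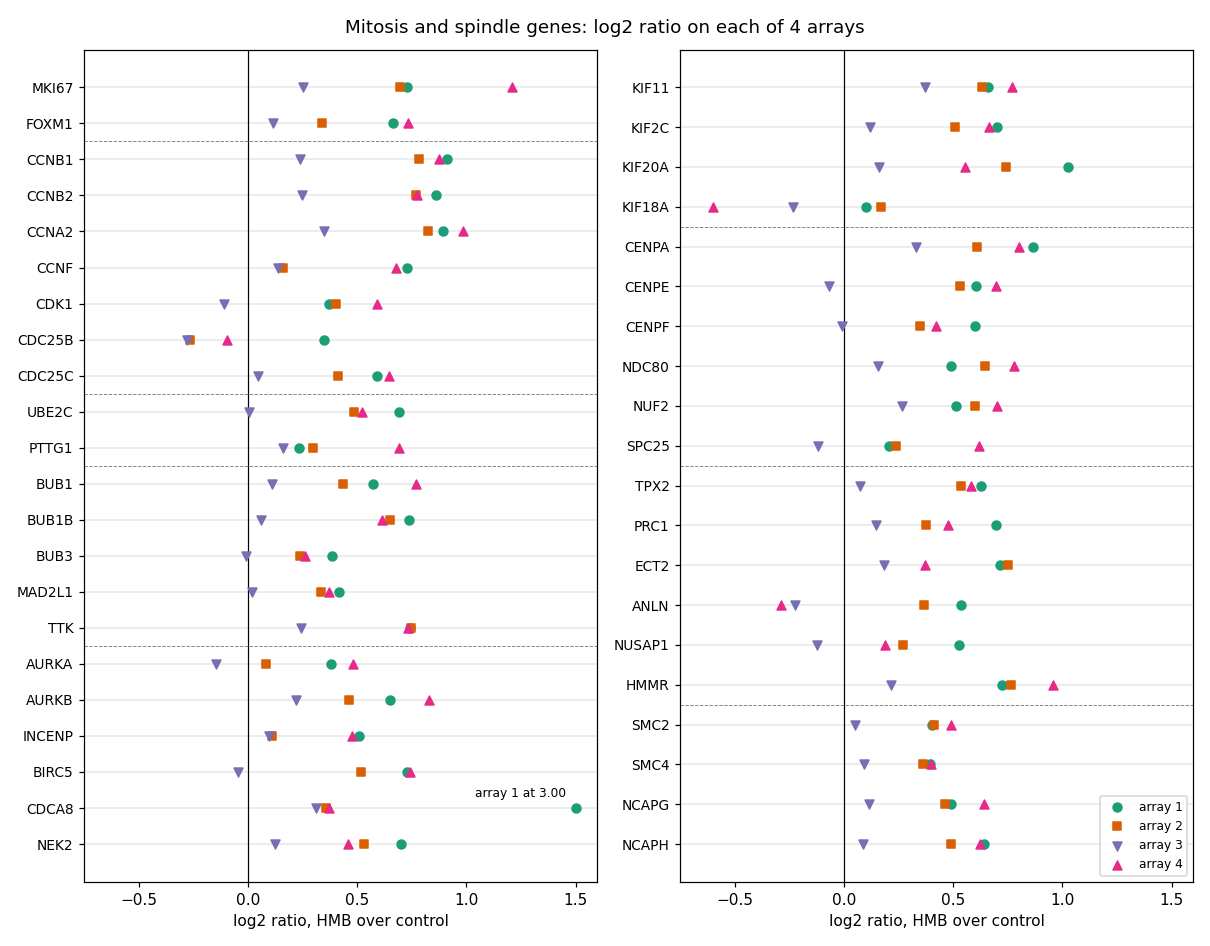
Log2 ratio of HMB over control on each of the 4 arrays for the 42 genes, ordered by role, with dashed lines between roles; each point is 1 array. The triangles of array 3 lie furthest left in 40 of the 42, and CDCA8 on array 1, at 3.00, lies beyond the axis and is drawn at its edge.

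MKI67, the proliferation marker that coats mitotic chromosomes, and FOXM1, a transcription factor of late cell cycle genes, were both higher. MKI67 had log2 ratios of 0.73, 0.70, 0.25 and 1.21 on the 4 arrays in turn (mean 0.72) and a limma adjusted p of 0.0189. FOXM1 had 0.66, 0.34, 0.11 and 0.73, with a mean of 0.46 and an adjusted p of 0.0338. Both ratios were highest on array 4 and lowest on array 3. The signal of FOXM1 was low: its log2 control intensity, normalised between arrays, was 5.22, 5.16, 6.11 and 5.96. The members' medians were 8.62, 8.75, 9.36 and 9.60. Without array 1 neither call was kept (adjusted p 0.0592 and 0.0964), nor without array 2 (0.0584 and 0.0796), and without array 4 that of FOXM1 was not (0.0804).

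Of the cyclins and their partners, 4 of 7 were higher. CCNB1, the cyclin B that starts mitosis with CDK1, had log2 ratios of 0.91, 0.78, 0.24 and 0.87, with a mean of 0.70 (95% interval 0.41 to 0.99) and an adjusted p of 0.0123. CCNB2, its relative at the Golgi, had 0.86, 0.77, 0.25 and 0.77, with a mean of 0.66. CCNA2, the cyclin of S phase and early mitosis, had 0.89, 0.82, 0.35 and 0.98, with a mean of 0.76 and an adjusted p of 0.00766, the highest mean among the 28. In all 3 cyclins array 3 stood apart below the other arrays, which lay close together. CDC25C, a phosphatase that activates CDK1, was the other gene that rose, with 0.59, 0.41, 0.05 and 0.65 and a mean of 0.43. It had low log2 control intensities of 5.28, 5.44, 6.34 and 6.66. Its call was lost without array 1 (adjusted p 0.104), array 2 (0.110) or array 4 (0.0913), whereas those of the 3 cyclins were kept without any single array.

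CDK1 itself, the kinase that these cyclins activate, did not pass the test. Its log2 ratios were 0.37, 0.40, -0.11 and 0.59, with a mean of 0.31, a 95% interval of 0.03 to 0.60 and an adjusted p of 0.100. Array 3 was the only array below 0, and without array 3 the adjusted p was 0.0363. CDK1 also passed when a median per array replaced the intensity-dependent correction (mean 0.47, adjusted p 0.0333). CCNF, a substrate receptor of a ubiquitin ligase, had 0.73, 0.16, 0.14 and 0.68, with a mean of 0.43 and an adjusted p of 0.0524. Here array 2 was nearly as low as array 3. CCNF also had low log2 control intensities, of 5.09, 5.16, 5.93 and 5.97. CCNF passed with a normexp background correction and loess, with a lower mean of 0.27 (adjusted p 0.0263). It also passed when both channels were required above background (0.0491). CDC25B, the phosphatase that acts first at mitotic entry, had 0.35, -0.26, -0.28 and -0.10, with a mean of -0.07 and an adjusted p of 0.674, so that array 1 alone was above 0. Without array 1, where all its ratios were below 0, the adjusted p was 0.0944.

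Both measured partners of the anaphase promoting complex were higher, near the threshold. UBE2C, the ubiquitin-conjugating enzyme of the complex, had log2 ratios of 0.69, 0.49, 0.00 and 0.52, with a mean of 0.43 and an adjusted p of 0.0441. Its 5 overlapping probes had means between 0.43 and 0.45. PTTG1, the securin that holds separase inactive, had 0.23, 0.30, 0.16 and 0.69, with a mean of 0.35 and an adjusted p of 0.04999, so that array 4 stood well above the rest. Without array 1, 2 or 4 neither call was kept, with adjusted p up to 0.115, 0.137 and 0.107, and without array 3 that of PTTG1 was not (0.0843).

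Among the spindle checkpoint genes, 3 of 5 were higher. TTK, the kinase that starts checkpoint signalling at unattached kinetochores, had log2 ratios of 0.74, 0.75, 0.24 and 0.73, with a mean of 0.62 and an adjusted p of 0.0111. Arrays 1, 2 and 4 were nearly equal and array 3 lay far below them. BUB1B, which binds and blocks the activator of the anaphase promoting complex, had 0.74, 0.65, 0.06 and 0.61, with a mean of 0.51. BUB1, a kinase that marks centromeric chromatin, had 0.57, 0.44, 0.11 and 0.77, with a mean of 0.47. BUB3 and MAD2L1, which complete the inhibitory complex, had means of 0.22 and 0.29 and adjusted p of 0.0960 and 0.0541; on array 3 they were at -0.01 and 0.02. MAD2L1 passed without array 3 (adjusted p 0.0464) and with an intensity trend and robust prior (0.0415). When a median per array replaced the intensity-dependent correction, BUB3 averaged 0.36 and passed (0.0200). MAD2L1 averaged 0.33 there and passed too (0.0316). Of the 3 calls of TTK, BUB1B and BUB1, only that of TTK was kept without array 1, array 2 or array 4. The highest adjusted p of the others was 0.0840, 0.101 and 0.0747 in these fits.

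The mitotic kinases and chromosomal passengers split evenly, with 3 of 6 higher. AURKB had log2 ratios of 0.65, 0.46, 0.22 and 0.83, with a mean of 0.54 (95% interval 0.28 to 0.79) and an adjusted p of 0.0176. Of its passenger partners, BIRC5 (survivin) had 0.73, 0.52, -0.04 and 0.74, with a mean of 0.49 and an adjusted p of 0.04997. A further probe, described as BIRC5 and outside the rule on names, had 0.80, 0.76, 0.05 and 0.85, with a mean of 0.61 and an adjusted p of 0.0279. It lies at chr11:49012003-49012062, far from the BIRC5 probe at chr11:3091521-3091580, and whether both measure the same gene was not tested. The call of the further probe was lost without array 1 (0.0869), array 2 (0.0946) or array 4 (0.0770). INCENP, the scaffold, had 0.51, 0.11, 0.10 and 0.48, with a mean of 0.30 and an adjusted p of 0.0686. Array 3 was lowest in each, with array 2 beside it in INCENP. NEK2, a centrosome kinase, had 0.70, 0.53, 0.12 and 0.46, with a mean of 0.45 and an adjusted p of 0.0246. AURKA, the kinase of the spindle poles, had 0.38, 0.08, -0.15 and 0.48, with a mean of 0.20 and an adjusted p of 0.244. Without array 1 or array 2 none of the 3 calls by limma was kept (lowest adjusted p 0.0575 and 0.0542), and without array 4 only that of AURKB was (0.0369).

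CDCA8 (borealin), the remaining passenger, had the highest value of any member on any array and no call. Its log2 ratios were 3.00, 0.36, 0.31 and 0.37, with a mean of 1.01, a 95% interval of -0.10 to 2.12 and an adjusted p of 0.159. Array 1 stood alone, and the other arrays lay between 0.31 and 0.37. The mean Cy5 signal of the CDCA8 spot was 634 on array 1 against 158, 203 and 239 on arrays 2 to 4. The Cy5 local background around it was 86.5 on array 1 against 47, 45 and 46, while its Cy3 signal was 111, 104, 163 and 199. The spot was not marked as an outlier by the scanner software. Without array 1 the mean was 0.35 and the adjusted p 0.0278.

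Of 4 kinesins, 3 were higher. KIF11, the motor that pushes spindle poles apart, had log2 ratios of 0.66, 0.63, 0.37 and 0.77, with a mean of 0.61 and an adjusted p of 0.00575, the lowest of any member. It also had the highest array 3 value of any member. KIF20A, which works at the midzone and in cytokinesis, had 1.02, 0.74, 0.16 and 0.55, with a mean of 0.62 and an adjusted p of 0.0240. KIF2C, which shortens microtubules at centromeres, had a mean of 0.50. KIF18A, a motor that limits chromosome movement, had 0.10, 0.17, -0.24 and -0.60, with a mean of -0.14 and an adjusted p of 0.477. It was above 0 on arrays 1 and 2 and below 0 on arrays 3 and 4, and without array 4 its mean was 0.01. Only the KIF11 call was kept without array 1, array 2 or array 4, where the highest adjusted p of the 3 was 0.0676, 0.0833 and 0.0607.

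At the centromere and kinetochore, 3 of 6 genes were higher. CENPA, the histone H3 variant that marks centromeres, had log2 ratios of 0.86, 0.61, 0.33 and 0.80, with a mean of 0.65 and an adjusted p of 0.00857. NDC80 and NUF2, which together bind the microtubule end, had the same mean of 0.52. NDC80 had 0.49, 0.65, 0.15 and 0.78, and NUF2 had 0.51, 0.60, 0.26 and 0.70, with array 3 lowest and array 4 highest in both. SPC25, from the other end of the same complex, had 0.20, 0.24, -0.12 and 0.62, with a mean of 0.23 and an adjusted p of 0.197. CENPE, a kinetochore motor, and CENPF, a large coiled-coil protein, had means of 0.44 and 0.34, adjusted p of 0.0571 and 0.0621, and -0.07 and -0.01 on array 3. Without array 3 both passed, with adjusted p of 0.0174 and 0.0380. The calls of CENPA and NUF2 were kept without any single array, whereas that of NDC80 was lost without array 1 (0.0586) or array 2 (0.0812).

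Of the genes of the spindle midzone and cytokinesis, 4 of 6 were higher. HMMR, which helps to organise spindle poles, had log2 ratios of 0.72, 0.76, 0.21 and 0.96, with a mean of 0.66 and an adjusted p of 0.0150. ECT2, the exchange factor that switches on RhoA for the cleavage furrow, had a mean of 0.50. TPX2, which activates AURKA on the spindle, and PRC1, which bundles midzone microtubules, had means of 0.45 and 0.42. ANLN, a scaffold of the contractile ring, had 0.54, 0.37, -0.22 and -0.29, with a mean of 0.10 and an adjusted p of 0.675. Like KIF18A it was above 0 on arrays 1 and 2 and below 0 on arrays 3 and 4, and without array 1 its mean was -0.05. NUSAP1, a microtubule-bundling protein, had 0.53, 0.27, -0.12 and 0.19, with a mean of 0.21 and an adjusted p of 0.197. The limma calls kept numbered 0 of 4 without array 1, 0 without array 2 and 2 without array 4, with adjusted p up to 0.0810, 0.101 and 0.0727.

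All 4 condensin genes were higher. SMC2 and SMC4, the ATPase core shared by both condensins, had means of 0.34 and 0.31, and NCAPG and NCAPH, subunits of condensin I, had 0.43 and 0.46. SMC4 had log2 ratios of 0.39, 0.36, 0.09 and 0.40, with an SD of 0.15 and an adjusted p of 0.0322. Array 3 was lowest in all 4 genes, between 0.05 and 0.11. None of the 4 calls by limma was kept without array 1, array 2 or array 4, with adjusted p up to 0.0973, 0.144 and 0.0908. All 4 were kept without array 3.

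Genes with several probes gave similar values. In all 16 such genes the probes had the same sign and the same call, and their means differed by a median of 0.07 and at most 0.14, in CENPA. At the probe level 43 of the 62 were higher and 0 lower by limma. The members lie on 18 chromosomes and 2 on unplaced sequence. Their probes have a median GC content of 43.3%, as have those of all genes, and 16.7% span more than their own length in the genome, against 17.0% of all genes.

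Across the 42 genes, which are not independent, the ratios of different arrays were correlated to unequal degrees in 6 pairs of arrays. Pearson's r was 0.71 for arrays 3 and 4, 0.69 for arrays 2 and 3, 0.61 for arrays 2 and 4, 0.48 for arrays 1 and 3, 0.27 for arrays 1 and 2 and 0.17 for arrays 1 and 4. Without CDCA8 the 3 pairs with array 1 had 0.63 (array 3), 0.71 (array 2) and 0.55 (array 4). Across all tested genes the 6 pairs, in the first order, had 0.71, 0.76, 0.70, 0.67, 0.68 and 0.54.

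The level of each dye was read separately, on the log2 scale of intensity after normalisation between arrays. In control RNA the members' median level was 8.62, 8.75, 9.36 and 9.60 on arrays 1 to 4. In HMB-treated RNA it was 9.16, 9.03, 9.49 and 10.03. The control level of a member spanned a median of 1.04 between arrays, against 0.32 for all genes, and the HMB level 1.1 against 0.39. The lowest control level was on array 1 in 30 members and on array 2 in 12, and the highest on array 3 in 12 and on array 4 in 30. The HMB level was highest on array 4 in 40 members. Of 15603 genes with 4 values, the control level was lowest on array 1 in 5129 and highest on array 4 in 5556. The HMB level was highest on array 4 in 5308 of them. From the lowest to the highest array, the members' control medians spanned 1.97-fold. A difference of the cells and one of labelling or hybridisation were not tested apart.

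The low ratios of array 3 came with a high control level and an HMB level between those of the other arrays. CCNB1 had control levels of 10.99, 11.04, 12.17 and 12.31 and HMB levels of 11.90, 11.82, 12.41 and 13.18. CDK1 had control levels of 11.37, 11.48, 12.50 and 12.51 and HMB levels of 11.74, 11.89, 12.40 and 13.10. In both genes the control level on arrays 3 and 4 was nearly the same, and the HMB level on array 4 was higher than on array 3. KIF18A had control levels of 8.58, 8.68, 9.29 and 9.60 and HMB levels of 8.68, 8.85, 9.06 and 9.00.

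**Figure D3:**
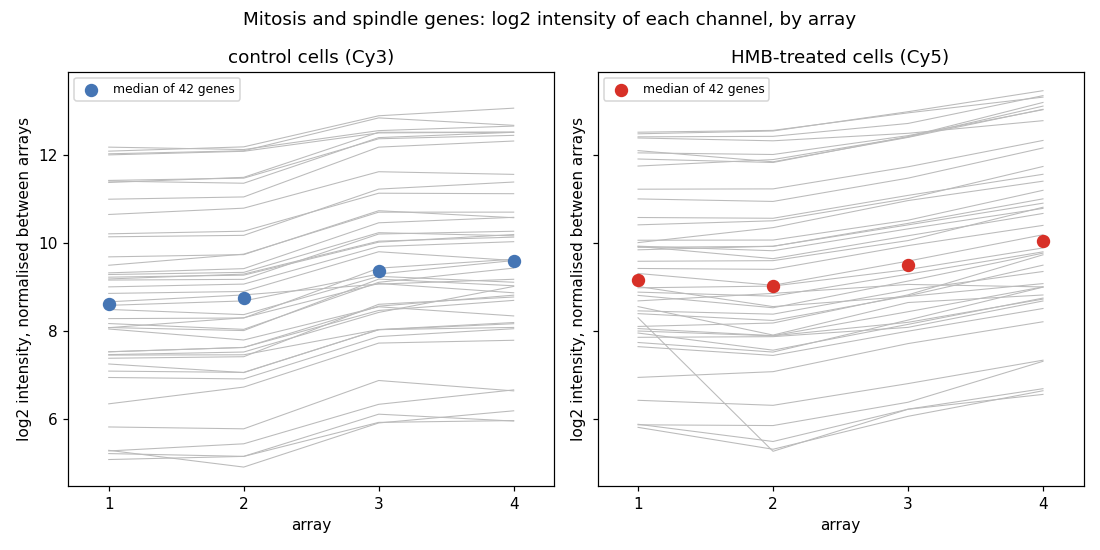
Log2 intensity, normalised between arrays, of the 42 members on each array in control (Cy3, left) and HMB-treated (Cy5, right) RNA; each grey line is 1 gene and the points are the medians. The control medians lie between 8.62 (array 1) and 9.60 (array 4), the HMB medians between 9.03 (array 2) and 10.03 (array 4).

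Of the 6 genes with no probe under their own name, 5 were found by the probe descriptions, a step chosen after the data were seen. CDC20, the activator of the anaphase promoting complex, had log2 ratios of 1.02, 0.71, 0.30 and 0.69, with a mean of 0.68 and an adjusted p of 0.0119. KIF23, a motor of the central spindle, averaged 0.47 (adjusted p 0.0376), and PLK4, the kinase of centriole duplication, 0.35 (0.0219). PLK1, the kinase of mitotic entry and exit, had 5 overlapping probes with means between 0.41 and 0.44 and adjusted p between 0.0499 and 0.0602. TOP2A, which untangles sister chromatids, had 0.87, 0.47, -0.21 and 0.18 on its brighter probe, with a mean of 0.33 and an adjusted p of 0.198. Array 3 was lowest in all 5. With them 31 of 47 genes were higher by limma, against 10.9% of all tested genes. The CDC20 call was kept without any single array, that of PLK4 was lost without array 2 (0.104), and that of KIF23 without array 1 (0.0787), array 2 (0.105) or array 4 (0.0883). PLK1 passed without array 3 (0.0291). KIF4A was not analysed here.

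Other genes of mitosis were taken from a list of 121, of which 100 were tested, with a median log2 ratio of 0.33. By limma 43 were higher and 3 lower, against 10.9% and 11.6% of all tested genes. The genes lower were TACC2 (-0.41), NEK7 (-0.38) and TROAP (-0.32), named after their values were seen. By role, 18 of 30 other kinetochore and centromere genes and 3 of 3 other condensin subunits were higher. Of other spindle, motor and cytokinesis genes 11 of 24 were higher and 2 lower. Of other mitotic entry and transcription genes 8 of 16 were higher and 1 lower. Among cohesin and separase genes 2 of 11 were higher, and among centriole duplication genes 1 of 4. Subunits and regulators of the anaphase promoting complex had a median of 0.06, and limma called 0 of 12, with 1 at an unadjusted p under 0.05, and the test on the variance of each probe alone called 0 of all 100 genes of the list. Without array 1 the list held 21 higher and 1 lower, without array 2 10 and 2, without array 3 41 and 1, and without array 4 22 and 3. Of all tested genes 7.51%, 3.31%, 4.25% and 7.92% were higher in these fits.

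The genes of that list with the largest differences among those past the threshold act with the members; KIF22 had a larger mean (0.71) but did not pass (adjusted p 0.0835), and is named after its values were seen. CKAP2, a spindle protein, had log2 ratios of 0.73, 0.70, 0.38 and 0.96, with a mean of 0.69 and an adjusted p of 0.00700. RACGAP1, the partner of KIF23, had 0.92, 0.72, 0.36 and 0.67, with a mean of 0.67. SPC24, the direct partner of SPC25, had 0.63, 0.51, 0.42 and 0.87, with a mean of 0.61 and an adjusted p of 0.00703, while SPC25 itself did not pass. GTSE1, SKA3, ZWINT, CDCA3, CENPW, NCAPD2 and OIP5 had means between 0.62 and 0.69. Array 3 was lowest in 9 of these 10 genes, CENPW being lowest on array 1, and in 68 of all 100 tested genes of the list. Of the 10 calls, 7 were kept without array 1 (highest adjusted p 0.0524), 7 without array 2 (0.0767), 9 without array 3 (0.0532) and 10 without array 4 (0.0439). With a normexp background correction and loess RACGAP1 and GTSE1 still passed, with lower means of 0.35 and 0.39.

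DNA replication genes, which act before mitosis, were compared as a list. Of 28 tested, 8 were higher and 0 lower by limma (20 and 0 at an unadjusted p under 0.05), against 10.9% and 11.6% of all tested genes (20% and 18%). The list had a median of 0.29 and array medians of 0.32, 0.30, 0.04 and 0.56. Array 3 was lowest in 26 of the 28. RFC3 and RFC4, subunits of the clamp loader, had the largest means, 0.56 and 0.51 (adjusted p 0.0228 and 0.0361). Of that pair of calls 1 was kept without array 1 (the other at 0.0551), 0 without array 2 (up to 0.110) and 1 without array 3 (the other at 0.0603). The variance of each probe alone called 0 of the 28 (RFC3 at 0.142 and RFC4 at 0.174), as did channels compared without pairing and a test of dim probes as well. Without array 1 the list held 2 higher, without array 2 0, without array 3 7 and without array 4 4. Of all tested genes 7.51%, 3.31%, 4.25% and 7.92% were higher in these fits.

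Of 10 tested CDK inhibitors, D cyclins and pocket proteins, which act on the decision to leave the cycle, 0 were higher and 3 lower by limma (2 and 3 at an unadjusted p under 0.05). Of all tested genes 10.9% were higher and 11.6% lower by limma (20% and 18% at that unadjusted p). CDKN1A (p21), the inhibitor that rises as myoblasts leave the cycle, had log2 ratios of -0.48, -0.61, -0.75 and -1.05, with a mean of -0.72 and an adjusted p of 0.00685. CCND2 was lower with a mean of -0.61 (adjusted p 0.00423), and with -0.38 (0.0159) when a median per array replaced the intensity-dependent correction. Both calls were kept without any single array, and both were lost by the variance of each probe alone (0.0864 and 0.0579), which called 0 of the 10. With dim probes tested as well 1 of the 10 was lower, CDKN1A being lost (0.0518). For CDKN1A array 4 was lowest and array 1 highest. The remaining gene lower by limma was CCND3, a D cyclin like CCND2, with a mean of -0.38 (adjusted p 0.0313). The other tested CDK inhibitors, CDKN1B (-0.09), CDKN2C (0.14) and CDKN2D (0.11), were not called. These genes are named after their values were seen.

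**Figure D4:**
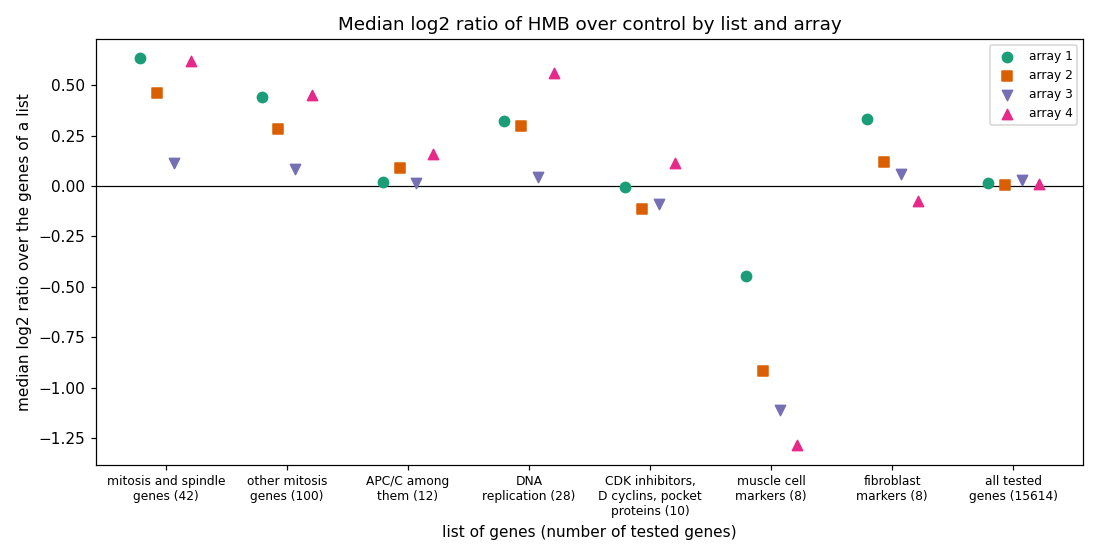
Median log2 ratio of HMB over control on each of the 4 arrays, where each point is 1 array. The lists are the 42 members, other mitosis genes with the anaphase promoting complex (APC/C) apart, and DNA replication genes. Also drawn are CDK inhibitors, D cyclins and pocket proteins as 1 list, muscle and fibroblast markers, and all tested genes. The members lie between 0.11 (array 3) and 0.63 (array 1), and the muscle markers between -1.29 (array 4) and -0.45 (array 1).

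Muscle markers moved the other way, and their part in the result was not tested. All 8 of 8 tested were lower by limma, against 11.6% of all tested genes, from MYOG with a mean of -0.42 to MYH8 with -1.93. By the variance of each probe alone 0 of 8 were lower, against 1.46%. With dim probes tested as well 2 were lower, against 2099 of 43603 probes. With channels compared without pairing 6 were lower, against 1675 of 27383 probes. When the deposited intensity-dependent correction was replaced by a median per array 7 were lower, MYH3 going from a mean of -1.11 to -0.37 (adjusted p 0.0522) and ACTA1 from -0.98 to -0.38 (0.0352). Their median was -0.45, -0.92, -1.11 and -1.29 on arrays 1 to 4, where the mitosis genes had 0.63, 0.46, 0.11 and 0.62. Summed over the 8, the intensity was 175571, 176143, 188633 and 196016 in control and 127384, 87262, 80622 and 73062 in HMB-treated RNA, with MYH3 the brightest probe. In control RNA single markers differed in pattern between arrays: the intensity of MYH8 was 1170, 862, 501 and 406, that of MYF5 429, 409, 519 and 533 and that of MYOG 1153, 1071, 1092 and 1086. Without array 1 all 8 calls were kept, without array 2 or array 3 5 (adjusted p up to 0.0875 and 0.100), and without array 4 6 (0.0660).

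Markers of other cells were few or mixed, and their part in the result was not tested either; the study's methods describe preplating to lower the number of fibroblasts. Of 8 tested fibroblast markers 2 were higher by limma, against 10.9% of all tested genes: PDGFRA with a mean of 1.53 and FAP with 0.42. By the variance of each probe alone 0 were higher, against 1.17%. The intensity of PDGFRA was low, at 38, 35, 39 and 42 in control and 81, 92, 108 and 191 in HMB-treated RNA. That of COL3A1 in control was 103219, 101948, 109330 and 146287. With a median per array 6 of the 8 fibroblast markers were higher: also DCN (0.15 to 0.92, adjusted p 0.000618), DPT (0.20 to 0.32, 0.0449), LUM (0.01 to 0.30, 0.0385) and COL3A1, the brightest probe (-0.21 to 0.75, 0.00343). Over the whole array 4632 of 27378 tested probes were higher in that fit, and 2746 of 27383 with normexp and loess. With a normexp background correction and loess 3 of the 8 markers were higher, among them DCN with 0.36 (0.0325) and PDGFRA with 0.89 (0.00620), and COL3A1 had 0.10. Summed over the 9 fibroblast markers with a probe, which include the untested TCF21, the control intensity was 185789, 180942, 195036 and 246213. In HMB-treated RNA it was 236617, 178164, 184325 and 184166. The FAP call was kept without array 4 only, with adjusted p of at most 0.0802 without any other array, and DPT passed without array 4 (0.0481). The leukocyte markers CD14 and CD68 had means of 0.02 and -0.29. Neither passed by limma, with 1 at an unadjusted p under 0.05. Summed over the 5 leukocyte markers with a probe, tested or not, the control intensity was 5553, 5002, 4861 and 5672. The HMB intensity of the same markers was 6364, 5142, 4851 and 5011, with CD14 the brightest probe.

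The number of mitosis genes that passed changed with the test. Of the 28, 0 were kept by the test on the variance of each probe alone, 0 when the channels were compared without pairing by array, 1 (KIF11, adjusted p 0.0396) when dim probes were tested as well, and 21 with a normexp background correction and loess, under which BIRC5, CDC25C, FOXM1, PTTG1, SMC2, SMC4 and UBE2C were lost. Of all probes tested in these fits, in that order, 346 of 27383, 892 of 27383, 1591 of 43603 and 2746 of 27383 were higher. With a median per array in place of the intensity-dependent correction 26 of the 28 members were kept, CDC25C and FOXM1 being lost. When spots marked as outliers were included 26 were kept, BIRC5 and PTTG1 being lost (adjusted p 0.0502 for both). Other calls were gained: CCNF with normexp and loess (22 members higher in all), and BUB3, CDK1 and MAD2L1 with the median per array (29). CENPE and MAD2L1 were gained with an intensity trend and robust prior (30), and CCNF with both channels required above background (29). With the median per array the called probes of the whole array split into 4632 higher and 3198 lower (59.2% higher) in place of 3071 and 3186 (49.1%).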

How the data were processed

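RNA from HMB-treated (Cy5) and control (Cy3) equine satellite cells was measured on 4 two-colour Agilent horse arrays. The deposited log10 ratio of Cy5 over Cy3 was made by the authors with background subtraction and linear and lowess dye normalisation, and it was multiplied by 3.32 to give log2. The deposited intensity of each channel is background-subtracted and dye-normalised by the authors, in scanner units. Headers name Feature Extraction 10.10.1.1, another version than the methods. Single-channel levels were normalised between arrays on intensity (Aquantile). Median signal over background was 3.52, 3.16, 3.52 and 3.82 in Cy3 and 4.68, 5.85, 4.81 and 4.74 in Cy5, and 0 spots were saturated. Of 43803 non-control spots per array, 11, 17, 32 and 15 were marked as outliers and left out.

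The filter kept 27383 probes: every spot of the probe well above background in at least 1 channel, that channel being the same on all 4 arrays, with 3 or more values. limma tested the mean ratio against 0, paired within arrays, with p adjusted by Benjamini and Hochberg over those probes and called at 0.05 or less. Intervals are 95% intervals from limma. A gene took its brightest tested probe. Named were all members, the 10 other mitosis genes with the largest means among those past the threshold with 1 sign on all arrays, the 2 lowest and 2 highest past the threshold in the comparison lists, and the markers, of which 1 is not reported here. The members and lists were chosen with earlier results of these data known.

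Alternatives were a normexp correction with an offset of 50 and loess, a median per array without lowess, a test on the variance of each probe alone in place of limma's pooled variance (the methods name software defaults and no test), limma with an intensity trend and robust prior, channels compared with and without the array as block, dim probes tested too, a filter asking for both channels, the outlier spots kept, the series matrix values, each array left out, a minimum of 1.3-fold, names from RefSeq synonyms or descriptions, and the mean of a gene's probes. Promoter motifs were not analysed here. R 4.3.3, limma 3.58.1, the data.table package in version 1.17.8, Python 3.11.15, numpy 2.4.6, pandas 2.3.3 and matplotlib 3.10.9 were used.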

Additional observations from a re-analysis of the deposited data

Results flagged for a closer look

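For 5 of the 79 named genes with 4 values, 1 array lay far from the other arrays, by a gap beyond Dixon's critical value at 95%. Chance gives about 1 in 20, or 3.95 of 79. CDCA8 was at 3.00 on array 1, against 0.31 to 0.37 on the others. On array 3, CCNB2 was at 0.25 (others 0.77 to 0.86), TTK at 0.24 (others 0.73 to 0.75), TPX2 at 0.071 (others 0.54 to 0.62) and SMC4 at 0.092 (others 0.36 to 0.40). All 5 are members. The cause was not tested.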

How the results depend on the processing

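Across the alternatives the 42 members kept their direction and their side of the threshold in 586 comparisons, lost a call in 156, gained one in 12 and changed sign in 2, none of the sign changes in a called gene. Some alternatives could not move a member, so the 586 include comparisons that test nothing. These were the series matrix values, separate channels with the array as block, and names added from synonyms or descriptions, each with 42 unchanged. No alternative called a member lower, and their median log2 ratio ran from 0.38 to 0.58. With the array as block, a fit of separate channels is the same test as that of the paired ratios. The count of members higher was therefore 28 there too. Without the block, which leaves out the pairing, it was 0, other mitosis genes had 0 higher and 1 lower, and 2567 probes were called in all. By the variance of each probe alone 768 probes were called in place of 6257, with 0 members higher and 0 other mitosis genes higher or lower. Without the filter on dim probes 3690 were called, with 1 member higher, 5 other mitosis genes higher and 1 lower. At a minimum of 1.3-fold 3863 were called, with 25 members higher (PTTG1, SMC2 and SMC4 lost) and 1 other mitosis gene lower.

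Leaving out each array in turn gave 2569 to 4981 called probes, 7 to 31 members higher, and 10 to 41 other mitosis genes higher and 1 to 3 lower. Signs changed, in genes without a call, for CD14 (-0.029), COL3A1 (0.10) and LUM (-0.040) with normexp and loess, and LUM (-0.11) with the mean of a gene's probes. With arrays left out the means ran from -0.048 to 0.23 for ANLN (negative without array 1), -0.24 to 0.012 for KIF18A (positive without array 4), -0.040 to 0.084 for CD14 (negative without array 1), -0.016 to 0.031 for LUM (negative without array 2 or array 3) and -0.20 to 0.28 for POSTN (negative without array 1 or array 4). COL3A1 (0.75) changed sign with a median per array and passed the test there. The names from descriptions, added after the data were seen, gave 31 members higher. The cause was not tested for any of these. Signal over background limits what dim probes can show, and the 4 arrays limit the test.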
